A study of Rattus norvegicus with 12 samples.

Results

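The comparison described here is between hearts of young adult rats that all ate a high fat and sucrose (HFS) diet after weaning and whose dams differed: 3 GDM-HFS libraries, from offspring of dams with gestational diabetes mellitus (GDM), against 3 Lean-HFS libraries, from offspring of lean dams. These 6 libraries were set by their labels, out of 12 in the series, and all gene models of the table were compared. Earlier results of these data were known when the comparison was chosen. Dams of the GDM group ate HFS before mating and through pregnancy and lactation, while the Lean group's dams were kept on low fat (LF) food, so the dam's diet and her diabetes cannot be told apart. The animals were Sprague Dawley rats, an outbred stock. Offspring were allotted to a diet at random when weaned at 3 weeks, and whole hearts were frozen at 15 weeks. The other 6 libraries, 3 GDM-LF and 3 Lean-LF, come from offspring of the same kinds of dams that ate LF after weaning, and they serve here as the same dam comparison in separate animals. The labels do not say which animals were littermates, so a p-value measures the spread between these samples, which may share dams.

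Gestational diabetes exposes the fetus to excess glucose and lipid while the heart is forming, and offspring of such pregnancies are studied for later changes in heart function. Giving the offspring a rich diet of their own asks how the dam's condition shows on top of that diet. A whole heart holds atrial and ventricular muscle cells, vessel walls with smooth muscle cells and pericytes, endothelium, fibroblasts, resident macrophages and blood. In RNA from such tissue, fewer cells of a type and less RNA per cell cannot be told apart.

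The unit throughout is a read signal: reads of a gene model put on a common scale between libraries and not divided by gene length, so levels are compared between libraries and not between genes. Recovered reads outside ribosomal RNA models came to 9410172, 11009660 and 10624025 in Lean-HFS 1, 2 and 3 and to 14418970, 12600930 and 11883687 in GDM-HFS 1, 2 and 3. On these reads the GDM-HFS libraries were deeper by 2619910 on average and did not overlap the Lean-HFS ones (exact two-sided permutation p = 0.1, the smallest that 3 against 3 can give). Reads over all models did overlap, at 22952739 to 25467767 in Lean-HFS and 23342269 to 26678794 in GDM-HFS (exact two-sided permutation p = 0.6). The 45S ribosomal RNA model took 13.5% to 14.7% of reads in Lean-HFS and 11.6% to 12.4% in GDM-HFS, without overlap. It is 1 of 7 models left out above as ribosomal or overlapping it, and it held only part of their reads. The mean correlation of a library with the other 5 across genes was 0.962 to 0.970, lowest for Lean-HFS 2. That library stood apart in heart muscle genes: Myh7, the slow myosin heavy chain, was at 31877 there and at 14970 and 15042 in Lean-HFS 1 and 3, and Myh6, the fast one, at 28979 there and at 78631 and 74507 in the others. GDM-HFS 1 stood apart in atrial markers, whose summed signal was 36873 there and 12601 to 18473 in the other 5 libraries. The part of either library or of depth in the results below was not tested beyond the values given without them.

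Of 12983 genes tested, 2 were called higher in GDM-HFS hearts (0.0154% of genes tested) and 0 lower (0.0%), by limma at a Benjamini-Hochberg adjusted p under 0.05. An unadjusted p under 0.05 was reached by 1252 genes (9.64%) where chance would give 649, 608 of them higher (4.68%) and 644 lower (4.96%). With the values left as deposited, the split was 1023 higher and 156 lower, and the median of all genes moved from 0.0052 to 0.11 on the log2 scale, so differences here are relative to the bulk of genes. On the LF diet the same fit called 4 genes (0.0308%), 3 higher (0.0231%) and 1 lower (0.0077%), and 649 genes (5.0%) had an unadjusted p under 0.05, 348 higher (2.68%) and 301 lower (2.32%). A difference that depended on the offspring's diet was tested as an interaction, and 0 genes were called (0.0%), with 391 (3.01%) at an unadjusted p under 0.05, of which 179 were positive (1.38%) and 212 negative (1.63%). edgeR on the recovered reads gave 2 higher (0.0154%) and 0 lower (0.0%), and DESeq2 25 higher (0.2%) and 22 lower (0.176%) of 12475.

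Kctd16 had the largest difference among the genes called. Its protein is an auxiliary subunit of GABA-B receptors, the G protein coupled receptors for the transmitter GABA, and shapes how fast the receptor's signal fades. The scaled signal was 11.2, 4.25 and 4.68 in Lean-HFS 1, 2 and 3 and 57.5, 90.4 and 116 in GDM-HFS 1, 2 and 3. Even the lowest GDM-HFS heart thus lay well above the highest Lean-HFS heart. The means were 6.70 ± 3.88 (SD, n = 3) and 87.8 ± 29.1 (SD, n = 3), a 13.1-fold ratio and a log2 difference of 3.78 ± 0.42 (SE; limma adjusted p = 0.00329), from 20 to 43 reads per Lean-HFS and 346 to 554 per GDM-HFS library. On the LF diet the log2 difference was 3.45 ± 0.42, and the interaction was 0.32 ± 0.60 (unadjusted p = 0.597). The gene model lies on the plus strand of Rnor_6.0 at chr18:33445437-33727382 and overlaps no other model of the table.

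The proteins around Kctd16 in the receptor were read from a list of 11 genes, of which 10 were tested and Kctd12 was not. At an unadjusted p under 0.05, 4 were higher (Kctd16 itself, Kctd8, Kcnj3 and Kcnj5) and 1 lower (Gnai2). Over all genes 4.68% were higher and 4.96% lower. The list was drawn up around Kctd16, so its place in that count is not separate support. The median was 0.03 against 0.0052 for all genes, and -0.12 without GDM-HFS 1. Of the receptor subunits, Gabbr1, which binds GABA, was at -0.04 ± 0.11. Gabbr2, which couples to G proteins, was at -0.80 ± 0.46 (limma adjusted p = 0.603) with only 6 to 23 reads per library. Kctd8, a relative of Kctd16 that also attaches to the receptor, was at 26.0, 16.2 and 31.8 in Lean-HFS and at 64.0, 93.1 and 53.2 in GDM-HFS hearts. All 3 GDM-HFS hearts were higher, but the log2 difference of 1.52 ± 0.30 did not pass (limma adjusted p = 0.192). It was 0.94 ± 0.30 on the LF diet, with an interaction p of 0.191. The potassium channel subunits Kcnj3 and Kcnj5, which open when G proteins signal and are rich in atria, were at 0.96 ± 0.38 and 0.97 ± 0.28, and the inhibitory G protein subunit Gnai2 at -0.21 ± 0.09 (limma adjusted p = 0.331 to 0.490 for these 3).

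Marcksl1 was the other gene called. Its protein is a myristoylated relative of MARCKS that binds actin and calmodulin and is phosphorylated by protein kinase C. The scaled signal was 7.01, 4.46 and 6.31 in Lean-HFS and 20.9, 30.0 and 31.1 in GDM-HFS hearts, with no overlap and little spread within either group. The means of 5.93 ± 1.32 and 27.3 ± 5.57 (SD, n = 3 each) gave a ratio of 4.61 and a log2 difference of 2.19 ± 0.25 (limma adjusted p = 0.00329), from 21 to 27 reads per Lean-HFS and 126 to 154 per GDM-HFS library. On the LF diet it was 2.47 ± 0.25, with an interaction of -0.28 ± 0.35 (unadjusted p = 0.436). When only the 6 HFS libraries were fitted, limma's adjusted p was 0.0665 and the call ended, at the same difference. The table gives this gene 2 placements and lists 1 position, chr1:84792039-84812668, while RefSeq places the gene on chromosome 5 of GRCr8, so which placement holds these reads is not known.

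Of the 9 tested genes on a list of the MARCKS family and its partners, Marcksl1 had an unadjusted p under 0.05 and the other 8 did not, where 4.68% of all genes were higher. The median was 0.16. Without Lean-HFS 1 it was 0.03, with 2 members higher and 2 lower. Marcks itself was at 161, 197 and 168 in Lean-HFS and at 153, 144 and 136 in GDM-HFS hearts, a log2 difference of -0.27 ± 0.13 (limma adjusted p = 0.520). All 3 GDM-HFS values lay below the 3 Lean-HFS values, opposite in sign to Marcksl1. Gap43, a neuronal relative in function, was at 1.42 ± 0.71 from 2 to 26 reads per library.

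Of Kctd16, Marcksl1 and Kctd8, the RefSeq promoter table was matched for Marcksl1 and Kctd8, whose promoters are shown to give the letters around the start of genes that were higher. Each runs 5′ to 3′ from 250 bases before the start on the plus strand of GRCr8: Marcksl1 at chr5:147135577-147135876 and Kctd8 at chr14:39126960-39127259. Capitals mark a GC box (GGGCGG or CCGCCC, the same letters read on either strand) in Marcksl1 and a cyclic AMP response element (TGACGTCA, the same on both strands) in Kctd8.
Marcksl1: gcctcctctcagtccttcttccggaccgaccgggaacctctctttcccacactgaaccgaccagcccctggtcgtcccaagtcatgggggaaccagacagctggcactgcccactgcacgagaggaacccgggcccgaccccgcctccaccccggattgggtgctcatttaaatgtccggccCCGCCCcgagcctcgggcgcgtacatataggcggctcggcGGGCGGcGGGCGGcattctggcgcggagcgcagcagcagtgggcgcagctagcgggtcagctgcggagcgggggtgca
Kctd8: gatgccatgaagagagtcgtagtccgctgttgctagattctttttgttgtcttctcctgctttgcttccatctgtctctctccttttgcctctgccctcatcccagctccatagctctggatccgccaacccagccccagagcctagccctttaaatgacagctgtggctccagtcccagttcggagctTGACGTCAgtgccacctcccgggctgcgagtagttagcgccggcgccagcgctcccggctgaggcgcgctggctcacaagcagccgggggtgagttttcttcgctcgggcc
The Marcksl1 window holds 3 GC boxes, and 33.1% of the 33469 promoters in the table hold at least 1. The Kctd8 window holds 1 cyclic AMP response element, a motif found in 1.83% of them. A match describes the letters only, and no binding was measured.

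The 10 higher and 10 lower genes of smallest p without overlap, filtered as described below, included these 2. The other 18 had a limma adjusted p of 0.101 to 0.258. Further genes outside the 20, such as Fos, also did not overlap and lay in that range. Over all tested genes 853 did not overlap and were higher (6.57%) and 933 did not overlap and were lower (7.19%), so separation alone was common. Rpl30, which codes for a large subunit ribosomal protein, was at 195, 153 and 184 in Lean-HFS and at 111, 65.7 and 58.8 in GDM-HFS hearts. That is a mean 2.26 times as high in Lean-HFS and a log2 difference of -1.23 ± 0.20 (limma adjusted p = 0.101), beside -1.32 ± 0.20 on the LF diet. Rpl30 has processed copies in mammalian genomes, so its reads are uncertain. Tmem47, a membrane protein of cell junctions, was at 144, 132 and 142 in Lean-HFS and at 199, 208 and 222 in GDM-HFS hearts (0.59 ± 0.10, limma adjusted p = 0.101). The spread within each Tmem47 group was small beside the gap between them. On the LF diet Tmem47 differed by 0.61 ± 0.10.

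Cyp4f18, a cytochrome P450 that hydroxylates fatty acids and leukotriene B4, had a scaled signal of 4.42, 4.46 and 5.84 in Lean-HFS and 12.3, 16.0 and 16.7 in GDM-HFS hearts. The log2 difference was 1.59 ± 0.28 (limma adjusted p = 0.155), and on the LF diet it was 3.11 ± 0.28. The GDM hearts of both diets lay close together, at 12.3 to 16.7 on HFS and 12.5 to 15.5 on LF. The Lean hearts did not, since Lean-LF 1, 2 and 3 were at 1.11, 1.70 and 1.85. The interaction of -1.52 ± 0.40 had an unadjusted p of 0.00212 and did not pass (limma adjusted p = 0.999).

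**Figure D1:**
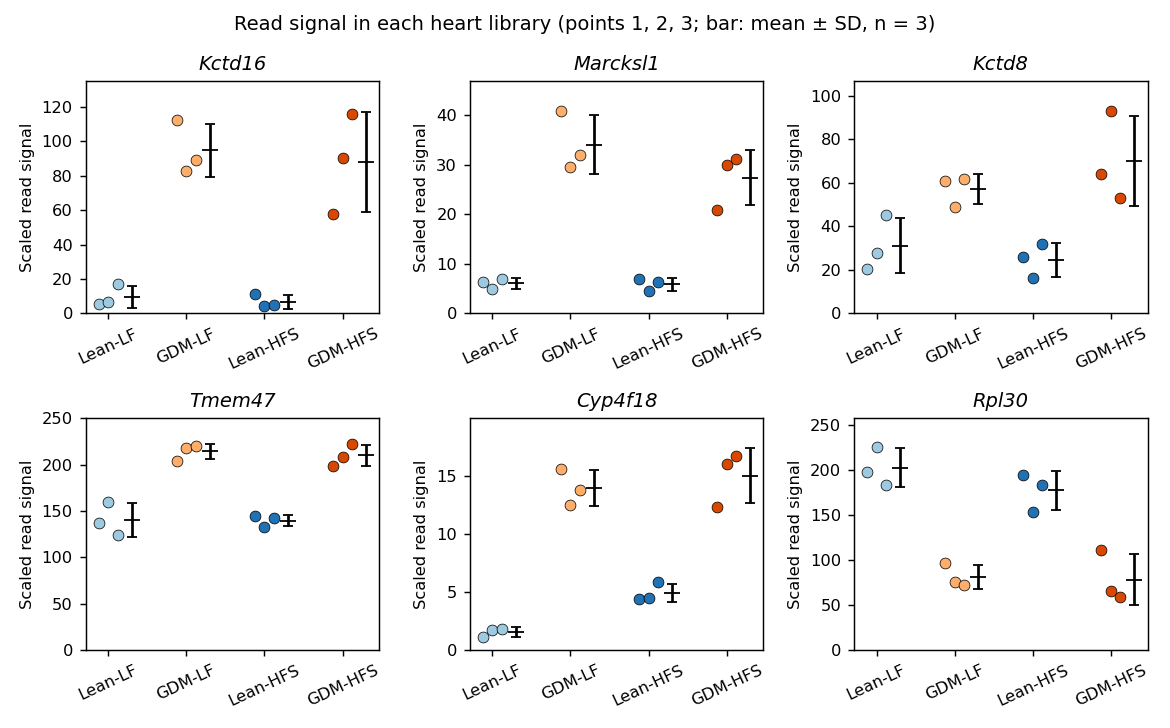
Scaled read signal (linear axis from 0) of 6 genes in each of the 12 libraries by group, with the mean ± SD (n = 3) beside the points. For Kctd16 the GDM-HFS libraries sit at 57.5 to 116 and the Lean-HFS ones at 4.25 to 11.2, and in the panel of Cyp4f18 the Lean-LF points lie below the Lean-HFS points.

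Among the other genes that were higher, Enpp5, of a family of ectoenzymes that cleave nucleotides, was at 27.5 in Lean-HFS 1, 21.0 in Lean-HFS 2 and 21.98 in Lean-HFS 3 and at 57.7, 40.3 and 38.2 in the GDM-HFS hearts (0.93 ± 0.18). Plcxd3, which carries a phospholipase C domain, was at 7.79, 12.8 and 8.42 in Lean-HFS and at 24.9, 25.1 and 28.8 in GDM-HFS hearts (1.47 ± 0.29). The model RGD1561161, called Cspg4b in RefSeq, was at 140, 95.7 and 126 against 279, 213 and 188 (0.91 ± 0.18). In all 3 genes the lowest GDM-HFS heart was above the highest Lean-HFS heart. Kank1, an adaptor at the rim of focal adhesions, had a smaller difference (0.38 ± 0.08). The limma adjusted p was 0.192 for each of these 4 genes and for Rd3l, described below with its neighbours.

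Among the genes that were lower, Lcp2, an adaptor of leukocyte receptor signalling, was at -0.63 ± 0.13, and Raet1l, of a family of ligands for an activating receptor of natural killer cells, at -0.87 ± 0.18. Ddt, a relative of the cytokine MIF, was at 107, 92.7 and 115 in Lean-HFS and at 71.8, 70.0 and 71.8 in GDM-HFS hearts (-0.55 ± 0.10, limma adjusted p = 0.191). Also lower were the lysosomal membrane protein Gpr155 (-0.58 ± 0.12), the clathrin adaptor subunit Ap1s2 (-0.55 ± 0.12), the acylphosphatase Acyp1 (-0.61 ± 0.14) and Tmem179 (-0.60 ± 0.11).

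The LF libraries share no sample with these 6, although the fit shares its estimate of spread. Of the 20 genes chosen by rank, 17 had the same sign on the LF diet, where 11 also had an unadjusted p under 0.05 and 12 did not overlap in the same direction (5.57% of all genes did so higher and 5.41% lower). The difference was smaller on LF for 16 of the 20, which were ranked by their p on HFS. Over all 12983 genes, 60.8% had the same sign in both. The interaction had an unadjusted p under 0.05 for 9 of the 20, against 3.01% of all genes, and 0 of them passed after adjustment. It contains the HFS difference by which the 20 were ranked, so that choice alone favours a high count.

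**Figure D2:**
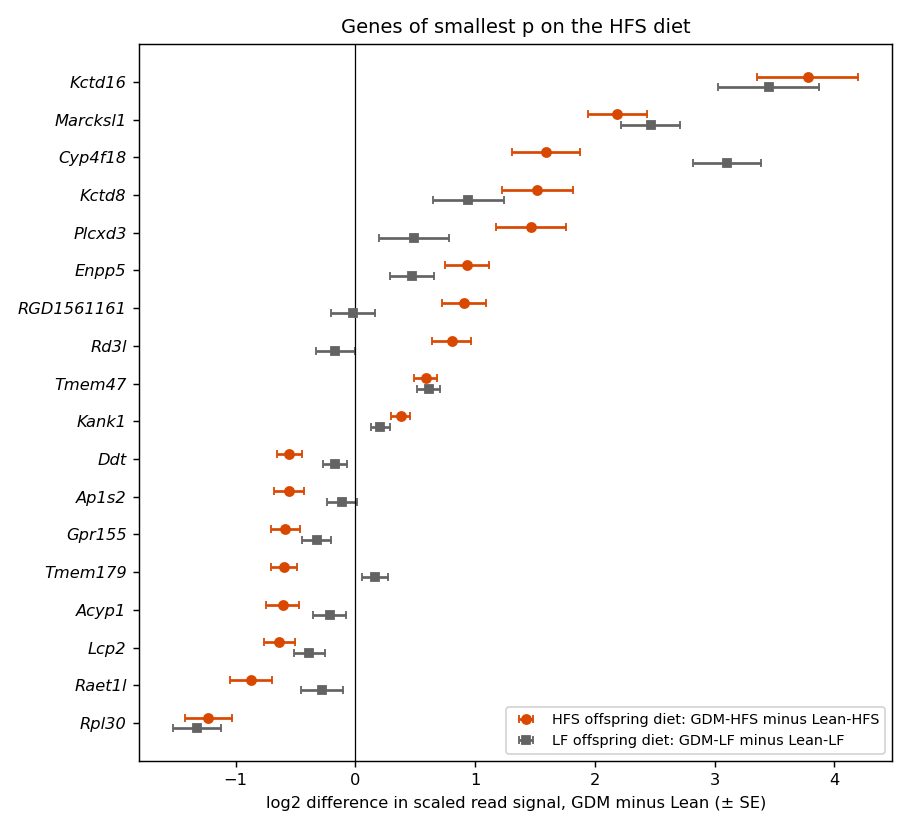
Log2 difference in scaled read signal, GDM minus Lean, with its SE, on the HFS diet (circles) and on the LF diet (squares) for 10 higher and 8 lower genes of smallest p on HFS. Kctd16 and Marcksl1 lie far to the right on both diets, while Rd3l is at 0.81 on HFS and -0.17 on LF.

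The genes Rd3l and Tmem179, of which the first was higher and the second lower, are near each other. They lie with Zfyve21 in a stretch of chr6:136380990-137084739, which holds 5 tested models. Rd3l was at 35.6, 25.7 and 35.5 in Lean-HFS and at 53.7, 56.3 and 57.8 in GDM-HFS hearts (0.81 ± 0.16). Tmem179 was at 382, 299 and 304 in Lean-HFS and at 238, 207 and 204 in GDM-HFS hearts. Neither gene showed this on the LF diet, at -0.17 ± 0.16 and 0.17 ± 0.11, and the interaction was 0.97 ± 0.23 for Rd3l (unadjusted p = 0.000895) and -0.76 ± 0.16 for Tmem179 (unadjusted p = 0.000292). Zfyve21 was at 0.39 ± 0.10 on HFS and -0.17 ± 0.10 on LF, with an interaction of 0.56 ± 0.14 (unadjusted p = 0.00138), but its model overlaps Ppp1r13b and the reads of the pair may be shared. All 3 interactions had a limma adjusted p of 0.999. Of the 5 models, 4 had an unadjusted p under 0.05 on HFS and 4 in the interaction. Over all genes the shares were 9.64% and 3.01%. The stretch was noticed after these values were seen, and its ends were set at Zfyve21 and Tmem179. Both are among the 4, so the count is raised by how the stretch was drawn. Gpr155 and Chrna1, a subunit of the muscle acetylcholine receptor, are also neighbours, in chr3:60051546-60460724. Chrna1 was at 23.9, 21.9 and 26.0 in Lean-HFS and at 9.98, 1.95 and 5.22 in GDM-HFS hearts (-2.32 ± 0.58, limma adjusted p = 0.309), and at -2.09 ± 0.58 on LF.

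Contractile genes of smooth muscle, which lets vessel walls constrict, were higher in GDM-HFS hearts in 14 of 15 tested members (50.9% of all genes had a positive difference and 49.1% a negative one). At an unadjusted p under 0.05, 10 were higher and 0 lower, where 4.68% of all genes were higher, and 6 did not overlap in that direction. None passed after adjustment by limma. The median log2 difference was 0.71 against 0.0052 for all genes, and 0.10 on the LF diet. Cnn1, the calponin of smooth muscle, was at 10.9, 7.44 and 12.6 in Lean-HFS and at 19.8, 50.3 and 83.7 in GDM-HFS hearts (2.10 ± 0.56, limma adjusted p = 0.309). Its interaction with the diet had an unadjusted p of 0.0099, with -0.26 on LF. Myh11, the smooth muscle myosin heavy chain, was at 414, 328 and 483 against 502, 817 and 1206 (0.97 ± 0.25). For both genes GDM-HFS 1 lay close above the Lean-HFS hearts and GDM-HFS 2 and 3 far above them. Tpm2, a tropomyosin, was at 53.0, 81.4 and 58.7 against 101, 109 and 171 (0.96 ± 0.20, limma adjusted p = 0.192). Actin Acta2 (1.17 ± 0.35), transgelin Tagln (1.15 ± 0.36), the enteric actin Actg2 (1.41 ± 0.44) and the myosin light chain Myl9 (0.59 ± 0.19) lay on the same side. Des, which heart muscle also expresses, was at -0.21 ± 0.11, and Myocd, a coactivator of this programme that is also made in heart muscle, at 0.01 ± 0.15. Without 1 HFS library at a time, 6 (without Lean-HFS 1) to 11 members were higher at that threshold, and the median ranged from 0.53 to 1.06 (without GDM-HFS 1). The summed signal of the list overlapped between the groups and was lowest in GDM-HFS 1 (9953) and highest in GDM-HFS 3 (13271).

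Pericyte markers, from the other mural cell of the heart, lay on the other side. Of 10 tested, 8 had a negative difference, 3 were lower at an unadjusted p under 0.05, where 4.96% of all genes were, and 0 were higher. The median was -0.15, and -0.06 on LF. Left as deposited, the values gave 0 lower and a median of -0.05. Rgs5, which damps G protein signals, was at 433, 590 and 544 in Lean-HFS and at 386, 401 and 403 in GDM-HFS hearts (-0.39 ± 0.12). The ATP-sensitive potassium channel subunit Kcnj8 was at -0.28 ± 0.11, and the receptor Pdgfrb at -0.35 ± 0.15 (limma adjusted p = 0.363 to 0.472 for the 3). Their summed signal was 3263 to 3835 in Lean-HFS and 3048 to 3155 in GDM-HFS hearts, without overlap.

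Immediate early genes code for transcription factors that cells induce within minutes of a stimulus, handling of the animal included. Of 25 tested, 5 were higher and 0 lower at an unadjusted p under 0.05, where 4.68% of all genes were higher. The median was only 0.06, from 0.01 without GDM-HFS 2 to 0.23 without GDM-HFS 1. Fos was at 8.31, 7.87 and 3.27 in Lean-HFS and at 22.4, 27.5 and 15.9 in GDM-HFS hearts (1.82 ± 0.38, limma adjusted p = 0.192). Every GDM-HFS heart had more Fos than every Lean-HFS heart, and the difference was 0.64 on LF (interaction unadjusted p = 0.0455). Fosb (0.98 ± 0.41) and Egr1 (0.53 ± 0.24) did not overlap either, while Nr4a3 (1.91 ± 0.67) and Nr4a1 (0.65 ± 0.25) did. Junb was at -0.21 ± 0.25 and Ier2 at -0.11 ± 0.22, so the list did not move as a block. Between 2 (without Lean-HFS 1 or GDM-HFS 2) and 7 (without Lean-HFS 2) members were higher when 1 HFS library was left out, and 3 without GDM-HFS 3. Fitted with an erythroid score as covariate, the list had a median of -0.14.

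**Figure D3:**
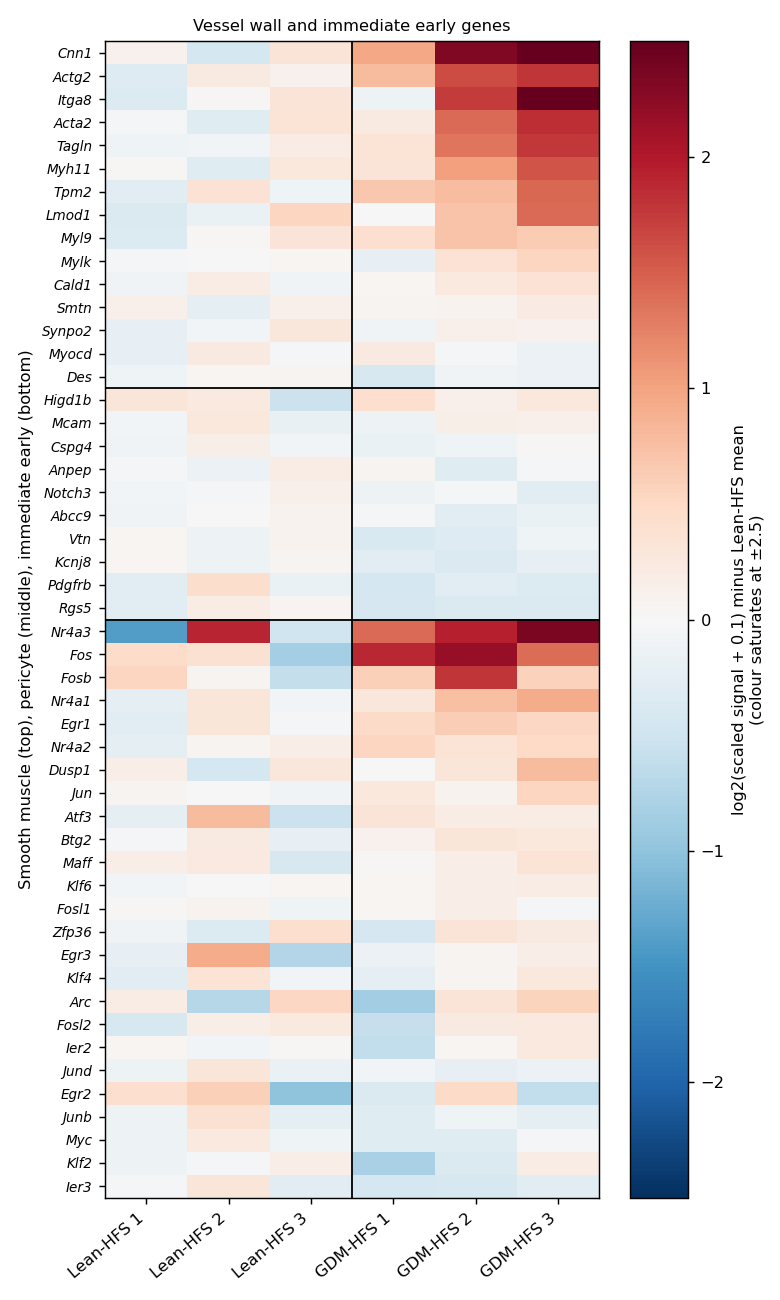
Log2(scaled signal + 0.1) minus the Lean-HFS mean, as colour, for all tested smooth muscle (15, top), pericyte (10, middle) and immediate early genes (25, bottom) in the 6 HFS libraries, ordered by difference within each list. The upper smooth muscle genes are red in GDM-HFS 2 and 3 and paler in GDM-HFS 1, and Rgs5, at the foot of the pericyte genes, is blue in all 3.

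Atrial markers were higher in GDM-HFS hearts in 16 of 18 tested members, with a median of 0.85, and 0.31 on LF. At an unadjusted p under 0.05, 5 were higher and 0 lower, where 4.68% of all genes were higher. Leaving out GDM-HFS 1 gave a median of 0.63, with 5 higher and 1 lower. The median was 0.60 when Lean-HFS 2 was dropped and 1.18 when Lean-HFS 3 was. The summed signal of the list overlapped between the groups. It was 12601, 16906 and 18473 in Lean-HFS and 36873, 16126 and 15818 in GDM-HFS hearts. By this sum, in which the most abundant genes weigh most, only GDM-HFS 1 lay above the Lean-HFS range. The atrial score, the mean log2 signal of the list, did not overlap. It was 6.83, 6.24 and 7.23 in Lean-HFS 1, 2 and 3 and 8.09, 7.47 and 7.26 in GDM-HFS 1, 2 and 3. Stard10, a lipid transfer protein, was at 56.4, 28.9 and 72.7 in Lean-HFS and at 190, 89.2 and 96.2 in GDM-HFS hearts (1.26 ± 0.34, limma adjusted p = 0.313). Tbx5, a transcription factor of atria and conduction tissue, was at 150, 114 and 221 against 524, 285 and 210 (1.02 ± 0.29) and overlapped. GDM-HFS 1 was the highest heart for both genes. The defining atrial genes Myl7, Myl4 and Sln were at 1.45, 1.54 and 1.79 without an unadjusted p under 0.05. Ventricular markers were negative in all 10 tested, with a median of -0.30. At an unadjusted p under 0.05, 2 were lower, where 4.96% of all genes were. Kcne1, a subunit of the slow repolarising potassium channel, was at 4.16, 8.29 and 7.01 in Lean-HFS and at 0.333, 0.780 and 1.46 in GDM-HFS hearts (-2.91 ± 0.70, limma adjusted p = 0.309), from 2 to 7 reads per GDM-HFS library. Irx4, a ventricular transcription factor, was at -0.41 ± 0.16. Without Lean-HFS 2 or GDM-HFS 2, 1 ventricular marker was lower at that threshold. How much atrium each sample held is not given by the labels, and its part in these results was not tested. With each library's atrial score as a covariate, the count of genes at an unadjusted p under 0.05 was 773, and Kctd16 and Marcksl1 were still called.

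Genes that run the heart beat were read beside those markers. Of 27 tested genes of calcium cycling, 8 were higher and 0 lower at an unadjusted p under 0.05, with a median of 0.20. Over all genes 4.68% were higher and 4.96% lower, the shares to set beside each list of this paragraph. Cacnb2, a subunit of the L-type calcium channel, was at 758, 757 and 950 in Lean-HFS and at 1237, 1315 and 930 in GDM-HFS hearts (0.49 ± 0.14), so GDM-HFS 3 lay within the Lean-HFS range. Itpr1, the inositol trisphosphate receptor, did not overlap (703, 704 and 781 against 1026, 900 and 869). The histidine-rich calcium binding protein Hrc was at 2054, 1200 and 2203 against 2232, 2314 and 2700, lowest in Lean-HFS 2. Without Lean-HFS 2 the calcium median was 0.08, and 5 members were higher without it, without GDM-HFS 1 or without GDM-HFS 2, and with the atrial covariate 3 were higher and 1 lower. Among 20 potassium and sodium channel subunits 3 were higher and 3 lower, and Kcnj12, an inward rectifier, was at 80.5, 56.1 and 84.6 against 116, 101 and 105 (0.56 ± 0.15). Without Lean-HFS 3, 9 of these subunits were higher, and without Lean-HFS 2 the median of 0.08 was -0.06. Among 11 conduction genes the pacemaker channel Hcn2 was lower in every GDM-HFS heart (361, 424 and 405 against 191, 238 and 324, -0.69 ± 0.17), and the calcium sensor Vsnl1 was higher (1.56, 7.23 and 9.82 against 58.9, 35.5 and 13.4, 2.62 ± 0.72). These 11 had 3 members higher and 1 lower, or 1 higher without Lean-HFS 2 or GDM-HFS 2. Of 16 adrenergic genes 3 were higher, led by the alpha-1 receptor Adra1b at 138, 95.7 and 158 against 189, 226 and 198 (0.67 ± 0.14, limma adjusted p = 0.216), and the count ran from 1 without GDM-HFS 1 to 5 without Lean-HFS 3 or as deposited.

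Endothelial markers were lower in GDM-HFS hearts, with a negative difference in 17 of 20, a median of -0.19, and 5 lower and 0 higher at an unadjusted p under 0.05, where 4.96% of all genes were lower. With the values as deposited 1 was lower and the median was -0.09. On LF the median was 0.08, and 4 members had an interaction with an unadjusted p under 0.05, against 3.01% of all genes, all 4 negative. Pecam1, an adhesion molecule of endothelial junctions, was at 525, 570 and 523 in Lean-HFS and at 441, 436 and 457 in GDM-HFS hearts (-0.28 ± 0.09, limma adjusted p = 0.377). Its interaction had the smallest unadjusted p of the list (0.00353). The receptor Tie1 was at 297, 275 and 284 against 206, 231 and 231 (-0.36 ± 0.09), and Egfl7, a secreted vessel factor, at -0.39 ± 0.11. For Pecam1 and Tie1 no GDM-HFS heart reached the Lean-HFS range, and the summed signal of the markers was 7935 to 8353 in Lean-HFS and 6961 to 7495 in GDM-HFS hearts.

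Markers of macrophages and monocytes were lower in 17 of 19, with a median of -0.38, and 9 were lower and 0 higher at an unadjusted p under 0.05, against 4.96% of all genes lower. With the values as deposited 5 were lower and the median was -0.28. Adgre1, a surface receptor of macrophages, was at 43.4, 58.9 and 53.5 in Lean-HFS and at 32.3, 37.0 and 26.9 in GDM-HFS hearts (-0.69 ± 0.19, limma adjusted p = 0.309). Fcer1g, a signalling chain of Fc receptors, was at 33.5, 54.2 and 37.2 against 23.6, 25.1 and 21.1 (-0.81 ± 0.21). Lean-HFS 2 was the highest for both, and its summed signal of these markers was 2321 against 1319 and 1395 in the other Lean-HFS hearts and 1147 to 1323 in GDM-HFS. Without it the median was -0.16, with 3 members lower and 1 higher, and without GDM-HFS 3, 4 were lower. Antigen presentation genes showed 7 of 17 lower and 0 higher (median -0.32, and -0.20 on LF), against the same 4.96%, and 2 lower with a median of -0.21 as deposited. Cd74, a chaperone of class II molecules, was at 1093, 957 and 1123 against 773, 842 and 878 (-0.35 ± 0.08), and the class II gene RT1-Da, of a family whose copies may share reads, at 141, 158 and 112 against 88.8, 85.5 and 73.0 (-0.73 ± 0.23). Neither overlapped, and the count of lower members was 2 if Lean-HFS 2 was left out, 3 for GDM-HFS 2 and 4 for Lean-HFS 1. Erythroid transcripts, from blood left in the tissue, had a median of -0.50 with 5 of 14 lower, against the same 4.96% of all genes. Without GDM-HFS 2 the median was -0.28, with 2 lower. Alas2, the haem synthesis enzyme of red cell precursors, was at 80.5, 58.0 and 67.3 against 61.9, 30.8 and 49.9 and overlapped. The summed signal of the 11 members without an overlapping model of 25% or more of their own signal also overlapped between groups. It was 1523 to 2284 in Lean-HFS and 1117 to 1668 in GDM-HFS hearts. No member passed after adjustment by limma, and with the values as deposited 3 were lower.

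Small heat shock proteins keep other proteins of the muscle cell from clumping. Among the 16 chaperones tested, 4 were lower and 1 higher at an unadjusted p under 0.05, where 4.96% of all genes were lower and 4.68% higher, and none passed after adjustment by limma. With the values as deposited 1 was lower and 1 higher, and the median of -0.04 turned to 0.07. The 4 lower were all small heat shock proteins. Hspb6 was at 3773, 6296 and 5138 in Lean-HFS and at 2879, 3144 and 3389 in GDM-HFS hearts (-0.66 ± 0.17, limma adjusted p = 0.309). Cryab, the alpha-B crystallin, was at 4564, 5249 and 4970 against 3892, 3915 and 4005 (-0.32 ± 0.10). Hspb7 (-0.38 ± 0.13) and Hspb8 (-0.32 ± 0.09) did not overlap either. The small heat shock protein Hspb1 was at -0.33 ± 0.16, and Hspb2 and Hspb3 were at 0.02 and 0.03. The larger stress proteins differed among themselves. The 1 higher member was Hspa1b, at 1.27 ± 0.56 (limma adjusted p = 0.492), and Hspa5 was at 0.19. Hspa8, Hsp90ab1 and Hsp90aa1 were at -0.01, -0.03 and -0.10.

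Genes that respond to stretch and hypertrophy had 5 of 17 lower and 1 higher at an unadjusted p under 0.05. Over all genes 4.96% were lower and 4.68% higher. The median of the list was -0.29, and 0.09 on LF. Skeletal alpha actin Acta1, which the adult heart re-expresses under load, was at 1522, 5794 and 2115 in Lean-HFS and at 586, 1224 and 1045 in GDM-HFS hearts (-1.55 ± 0.46, limma adjusted p = 0.339). Ankrd1, a stretch-responsive nuclear and sarcomere protein, was at 9579, 13944 and 8870 against 6973, 6984 and 7858 (-0.54 ± 0.18). Rcan1, a feedback inhibitor of calcineurin, was at -0.59 ± 0.20. Lean-HFS 2 was the highest for Acta1 and Ankrd1, and without it the median of the list was -0.06, with 2 lower and 2 higher. As deposited, 3 were lower and 2 higher. Leaving out Lean-HFS 1 gave a median of -0.46 and leaving out GDM-HFS 3 one of -0.17, and 2 were lower without GDM-HFS 1.

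Cytosolic ribosomal proteins were lower in 58 of 77, and 23 were lower and 0 higher at an unadjusted p under 0.05, against 4.96% of all genes lower. The median of -0.11 was small, and with the values as deposited it was -0.0032 where that of all genes was 0.11, and 5 members were lower. Rpl41 was at 421, 521 and 543 in Lean-HFS and at 393, 335 and 327 in GDM-HFS hearts (-0.49 ± 0.11). The groups did not overlap. The summed signal of the 73 members without an overlapping model of 25% or more of their own signal was 20739 to 21119 in Lean-HFS and 18446 to 19568 in GDM-HFS hearts. Lean-HFS 1 was the closest to the GDM-HFS hearts for Rpl41, and the median was -0.06 without it. Lower members numbered 14 when Lean-HFS 3 was left out, 13 when GDM-HFS 2 was, and 10 with the atrial covariate. These genes have many processed copies, so their reads are uncertain.

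Matrix genes were mixed, with 4 of 29 higher and 2 lower at an unadjusted p under 0.05. Over all genes 4.68% were higher and 4.96% lower, shares that also stand beside the fuel genes below. Col18a1, a basement membrane collagen, was at 123, 133 and 108 in Lean-HFS and at 163, 178 and 203 in GDM-HFS hearts (0.58 ± 0.14), with 0.05 on LF (interaction unadjusted p = 0.021). Eln, the elastin of vessel walls, was at 228, 359 and 277 against 354, 449 and 679 (0.75 ± 0.24). The median of the list was -0.12, and 0.18 without Lean-HFS 2, where 7 were higher and 0 lower, and -0.01 as deposited, where 3 were higher and 0 lower. Fuel genes came next. Of 32 genes of fatty acid oxidation and PPAR targets 1 was higher and 0 lower, and the median was 0.07. With the values as deposited 8 were higher and the median was 0.18. The median was -0.07 when Lean-HFS 2 was left out and 0.17, with 6 higher, when Lean-HFS 1 was. Cpt1a, which admits fatty acids to mitochondria, was at 406, 285 and 380 against 496, 472 and 412 (0.38 ± 0.17), and Lpl, which frees fatty acids from lipoproteins, at -0.05 ± 0.15. Of 29 genes of glucose use and insulin signalling 1 was higher and 1 lower, and 6 were higher without Lean-HFS 3 or with the values as deposited. Of 33 nuclear subunits of complex I, 1 was lower and 0 higher, and without Lean-HFS 2, 11 were lower. With the values as deposited 1 of them was higher and 0 lower, and the median of -0.05 turned to 0.05.

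**Figure D4:**
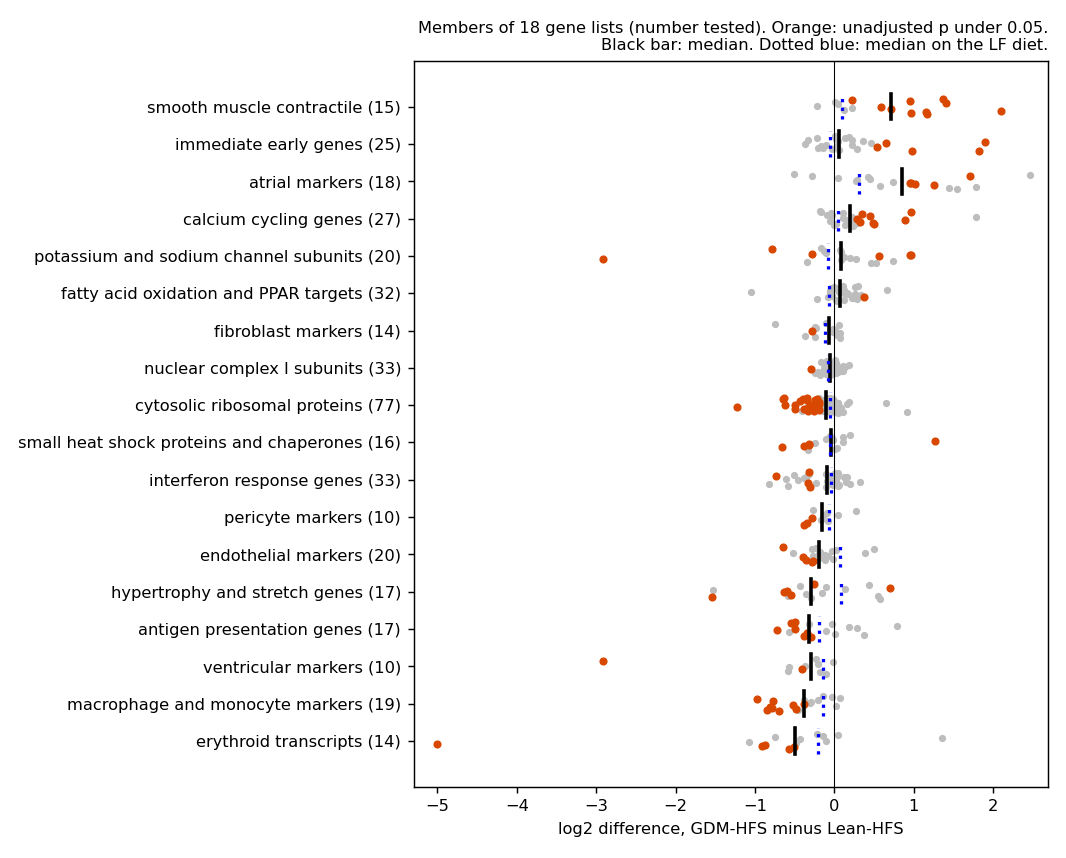
Log2 difference between GDM-HFS and Lean-HFS hearts for each tested member of 18 gene lists (points, orange at an unadjusted p under 0.05), with the median on HFS (black) and on LF (dotted). The smooth muscle and atrial medians lie at 0.71 and 0.85, and those of macrophage and erythroid markers at -0.38 and -0.50.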

How the data were processed

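Total RNA of rat hearts had its ribosomal RNA removed, went into directional libraries and was sequenced in pairs of 100 base reads, per the labels. Reads were aligned with STAR 2.5.1b to Rnor_6.0, per the labels' protocols, with HOMER 4.9, edgeR, Trim Galore and FastQC listed in the submitters' processing notes. The deposited table gives a normalised read signal per gene model. Its name calls it FPKM, but values are not divided by length and are whole multiples of a step of each library (0.184 to 0.262), so reads were recovered for 100% of values within 0.1 read. The sources used here do not state the read assignment to models, nor whether both mates of a pair were counted. Among low recovered values, 67.8% to 73.6% per library were even numbers. Where both mates were counted, a read count exceeds the fragments behind it, also in the edgeR and DESeq2 fits. Of tested models 152 have more than 1 placement and 1005 overlap a model with at least 25% of their signal. Each library was scaled by a median-of-ratios factor (0.886 to 1.15), and models with a mean of at least 0.5 were tested (12983 of 17322).

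limma 3.58.1 in R 4.3.3 was fitted to log2(scaled signal + 0.1) over 12 libraries in 4 group means, with a variance trend and 8 residual degrees of freedom, so fold changes of low genes are understated. P-values are two-sided, and Benjamini-Hochberg adjustment ran across every gene tested. Median standard errors were 0.16 on HFS and 0.23 for the interaction. edgeR 4.0.16 and DESeq2 1.42.0 on recovered reads were alternatives. On simulated data for this comparison with 12983 genes, 79% of genes changed by 1 on the log2 scale and 99% of those changed by 2 were recovered, with 5 false calls. The 100 genes changed at each size were drawn only from genes above a floor of reads. So many changed genes also ease the adjusted threshold, so these shares do not carry over to the real comparison.

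Genes named are those called, the 10 higher and 10 lower of smallest p without overlap, whose mean signal reached 5 and whose span held no overlapping model of 25% or more, and the up to 4 members of smallest p of each list, plus all of 6 lists. A few other members of lists are named for their role, and some genes that the rule names are not reported here. The 36 lists and the comparison were chosen with earlier results of these data known, so they are not independent support. A library's atrial or erythroid score is the mean log2 signal of that list. RefSeq (GRCr8) matched 17133 models, for names and promoters.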

Additional observations from a re-analysis of the deposited data

How the results depend on the processing

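Kctd16 and Marcksl1 were both called in every setting tried, except that Marcksl1 was not when only the groups compared were fitted (1 call, limma adjusted p = 0.0665 for Marcksl1 and 0.0445 for Kctd16). The count of 2 became 39 with the erythroid score as a covariate (31 higher, 8 lower) and 47 by DESeq2. It became 19 with that score taken without members overlapped at 25% or more (19 higher, 0 lower, a setting chosen after seeing the data). Leaving out 1 library at a time gave 2 to 4 calls, with Gpr155 and Sec14l5 added without Lean-HFS 1, Rpl30 without GDM-HFS 1 and Raet1l without GDM-LF 3. The 1252 genes at an unadjusted p under 0.05 became 773 with the atrial covariate and 954 to 1490 without 1 library. On the LF diet the 4 calls became 17 by DESeq2 and 2 to 6 without 1 library (2 without Lean-LF 1 or GDM-LF 1). The interaction had 0 calls by limma in every setting and 391 genes at an unadjusted p under 0.05. The difference in reads outside ribosomal RNA models was 1894356 to 3161998 without 1 library. Only the 137 named genes of smallest p in the main fit were followed across settings, so a turned sign was unlikely from the start. Of their 3831 pairs of a gene and a setting, 3785 kept their sign and side of the threshold. In 1 pair the call was lost, in 45 it was gained, and 0 turned sign past the threshold. Of 1008 pairs of a list and a setting, the median moved in 44. Libraries with the same replicate number at the end of the title had correlations of -0.098 to 0.115 between their deviations from group means. Those with different numbers had -0.132 to 0.199. With 3 libraries a group this cannot exclude a pairing, and the numbers that open the titles were not tested. With the replicate number as a block there were 3 calls on HFS (Rpl30 added) and 1258 genes at an unadjusted p under 0.05. That fit gave 5 calls on LF and 0 for the interaction. Only 3 libraries a group were compared, with a median standard error of 0.16 for a log2 difference.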

Other observations

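Clock genes and genes of the cell cycle were also read in the HFS hearts. Of 15 clock genes 2 were higher and 1 lower at an unadjusted p under 0.05, with a median of 0.14. The shares over all genes, for each list of this paragraph, were 4.68% higher and 4.96% lower. Dbp, a clock output factor, was at 92.2, 50.4 and 32.7 in Lean-HFS and at 141, 87.7 and 77.8 in GDM-HFS hearts (0.89 ± 0.37), and Per3 at 107, 63.35 and 47.7 against 158, 91.8 and 104 (0.74 ± 0.29). For both, replicate 1 was the highest heart of its group and the groups overlapped, and without Lean-HFS 2 or 3 no clock gene was higher at that threshold (0 genes). Cry2, a repressor of the clock, was at 172, 160 and 147 against 144, 127 and 121 (-0.29 ± 0.11). The time of day at which hearts were taken is not given in the labels. Of 20 cell cycle genes 3 were lower and 1 higher (median -0.19), with 1 lower without Lean-HFS 1 or GDM-HFS 3, a median of -0.42 without GDM-HFS 1 and -0.10 without GDM-HFS 3, and 6 lower (median -0.48) with the atrial covariate. The lower genes included Plk1, a mitotic kinase, which was at 4.16, 5.31 and 6.55 against 2.99, 1.56 and 2.50 (-1.17 ± 0.42). Of 16 glucocorticoid targets 2 were lower, with Cdkn1a, an inhibitor of the cell cycle, at 247, 328 and 366 against 147, 191 and 248 (-0.70 ± 0.28), and 4 were higher and 0 lower without GDM-HFS 1.

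Markers of several other cell types were read, beside 4.68% of all genes higher and 4.96% lower at an unadjusted p under 0.05. Adipocyte, lymphocyte and mesothelial markers had 0 members with an unadjusted p under 0.05, of 12, 11 and 8 tested, at medians of 0.28, 0.32 and 0.46. The adipocyte median ran from -0.06 without GDM-HFS 3 to 0.91 without GDM-HFS 1, and the lymphocyte median was 0.05 without GDM-HFS 1. Of the mesothelial markers 7 of 8 were positive, and their median was -0.0079 without GDM-HFS 1 and 0.96, with 3 higher, without GDM-HFS 2. Of 14 fibroblast markers 1 was lower, and the median of -0.06 became 0.17 without Lean-HFS 2 and 0.04 as deposited. In that library Postn, a matrix protein of activated fibroblasts, was at 371, against 23.4 to 61.8 in the other 5. Of 10 Schwann and neuronal markers 2 were higher, S100b (1.14 ± 0.51) and the myelin gene Mbp (1.12 ± 0.51). Of 11 mast cell and granulocyte markers 2 were lower and 1 higher. Cpa3, a protease of mast cell granules, was at 14.8, 9.78 and 11.2 against 7.15, 7.01 and 4.80 (-0.91 ± 0.24), and Padi4, a histone-modifying enzyme of granulocytes, at 3.64, 5.74 and 4.68 against 10.6, 7.79 and 10.2 (1.02 ± 0.38). Of 33 interferon response genes 4 were lower and 0 higher, with a median of -0.10 that became 0.0056 without Lean-HFS 2 and 0.01 as deposited, where 1 was lower and 1 higher. Of 9 genes of fast skeletal muscle 3 were lower, among them the myosin Myh2 at 10.4, 11.3 and 6.55 against 1.16, 3.70 and 5.01 (-1.67 ± 0.49). Of the sex-linked transcripts 3 were tested, and the Y-linked Eif2s3y was at 118 to 143 in all 6 hearts. Of 24 cardiac reference genes 2 were higher and 3 lower. Of 8 genes that an earlier analysis of these libraries called between GDM and Lean hearts averaged over diets, 7 were higher and 1 lower here at an unadjusted p under 0.05, which is not independent of that call.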
